A study of Mus musculus with 27 samples.

Results

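*Nfe2l2*, the gene of the transcription factor NRF2, and 9 of its known target genes (*Nqo1*, *Gclc*, *Gclm*, *Hmox1*, *Srxn1*, *Txnrd1*, *Slc7a11*, *Ugdh* and *Pir*) were followed in mouse liver RNA across 2 genotypes and 2 diets. The genes were taken by symbol, and all 10 were found among the 23191 gene symbols of the count table. The list was chosen by name with the measured levels of these same mice in the 4 groups already known, so the group levels given here are a description. The adjusted p-values show where a gene stands among all genes of a comparison and are no independent test of the list.

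HGFAC-KO mice carried a CRISPR/Cas9 deletion, present in every tissue, from the middle of exon 1 through exon 2 of *Hgfac*, the gene of a liver-secreted protease that activates hepatocyte growth factor. Their littermate controls lacked it, and all mice were male and on the C57BL/6J background. From 8 weeks of age they ate chow or HF/HS, a diet rich in fat and sucrose, for 4 weeks, which gave 7 control mice on chow, 6 HGFAC-KO mice on chow, 7 control mice on HF/HS and 7 HGFAC-KO mice on HF/HS. The diets were different products, so the parts of fat, sucrose and other ingredients cannot be told apart. Bulk liver RNA was sequenced once per mouse, and with bulk tissue fewer cells of a type and less RNA per cell cannot be told apart.

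Total counts per mouse ran from 36056177 to 57298657. *Hgfac* was at 183 to 293 CPM (counts scaled to a common library size) in the 14 control mice and at 65.6 to 101 CPM in the 13 HGFAC-KO mice, so that every mouse stood on the side of its label. No hepatocyte marker of the 8 looked at, *Alb* among them, was at 0 in any group, and their summed level was between 81060 and 118654 CPM.

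NRF2 is made continuously and is held at a low level by KEAP1, which hands it to a CUL3 ubiquitin ligase for degradation. Oxidants and electrophiles modify KEAP1, NRF2 then accumulates, pairs with a small MAF protein and binds antioxidant response elements, where BACH1 can compete with it. Its targets in liver make glutathione, keep thioredoxin and peroxiredoxins reduced, detoxify quinones, break down heme, and supply NADPH and conjugation enzymes. Because NRF2 is controlled mainly through the stability of its protein, the level of *Nfe2l2* mRNA is not a measure of its activity.

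The core of the antioxidant response element, TGACNNNGC, was looked for on both strands of the RefSeq promoter windows of GRCm38.p6, from 250 bases before to 50 bases after each start. Of the 10 genes, 8 had a window there, *Gclc* and *Hmox1* being the ones without. The motif was present in 6 of these 8 genes (75%), against 14% of all 27025 genes with a window and 20.5% of 39 further known NRF2 targets. Among genes with a window that were tested in the fit of 27 mice, it was in 16.7% of 10956. The 10 genes were listed as NRF2 and its known targets, so these shares are a description and no test. The stretches that hold the motif are shown because they are what these genes share in sequence, printed on the gene's strand with the motif in capitals. In *Gclm*, *Pir*, *Txnrd1* and *Srxn1* the motif is on the opposite strand, and the capitals are its reverse complement.
*Gclm*, chr3:122245403-122245451, plus strand: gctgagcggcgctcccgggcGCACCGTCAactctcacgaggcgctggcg
*Ugdh*, chr5:65435946-65435994, minus strand: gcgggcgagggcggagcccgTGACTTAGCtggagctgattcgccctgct
*Pir*, chrX:164269197-164269245, plus strand: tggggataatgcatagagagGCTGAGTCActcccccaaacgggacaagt
*Txnrd1*, chr10:82859094-82859142, plus strand: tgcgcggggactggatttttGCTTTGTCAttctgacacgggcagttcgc
*Nfe2l2*, chr2:75704875-75704913, minus strand: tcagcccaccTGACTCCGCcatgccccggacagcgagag
*Srxn1*, chr2:152105542-152105570, plus strand: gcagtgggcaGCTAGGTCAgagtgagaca

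Counted from the start of transcription, the motif began at -134 in *Gclm*, -132 in *Ugdh*, -214 in *Pir*, -92 in *Txnrd1* and -240 in *Nfe2l2*, and at 29 in *Srxn1*, inside the transcript. *Ugdh* held it again at -94 and *Pir* again at 20, and in *Txnrd1* it was in 1 of 3 windows. The *Pir* motif at -214 is at the same time the AP-1 motif TGACTCA. That motif was in 2 of the 8 genes (25%), *Pir* and, apart from the motif above, *Srxn1*, against 5.95% of all genes with a window and 15.4% of the 39 further targets. The windows of *Nqo1* and *Slc7a11* did not hold these letters. A match is only a match of letters, and no binding was measured.

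HF/HS feeding went with lower RNA of *Nqo1*, *Ugdh* and *Pir* in both genotypes and of 3 further genes in control mice. In control mice 6 of the 9 genes that could be tested were lower on HF/HS than on chow (*Pir*, *Ugdh*, *Nqo1*, *Srxn1*, *Gclm* and *Gclc*) and none was higher, where 5.6% of all 13525 genes tested were called lower and 4.93% higher. In HGFAC-KO mice 3 of 9 were lower (*Ugdh*, *Pir* and *Nqo1*) and none was higher, where 2.73% of 13613 genes were called lower and 3.17% higher. A call is an adjusted p below 0.05 in edgeR's quasi-likelihood test, after Benjamini-Hochberg correction across all genes of the comparison. The median log2 fold change of the 9 genes was -0.46 in control mice and -0.23 in HGFAC-KO mice, where the median of all genes was 0.00 in control mice. In each genotype the mice on HF/HS lay wholly below those on chow for 4 of the 9 genes, where 2.05% of all genes did so in control mice and 1.45% in HGFAC-KO mice. The remaining gene, *Slc7a11*, was too low to be tested. DESeq2 and limma voom also called no member higher, and DESeq2 called 5 members lower in HGFAC-KO mice.

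**Figure D1:**
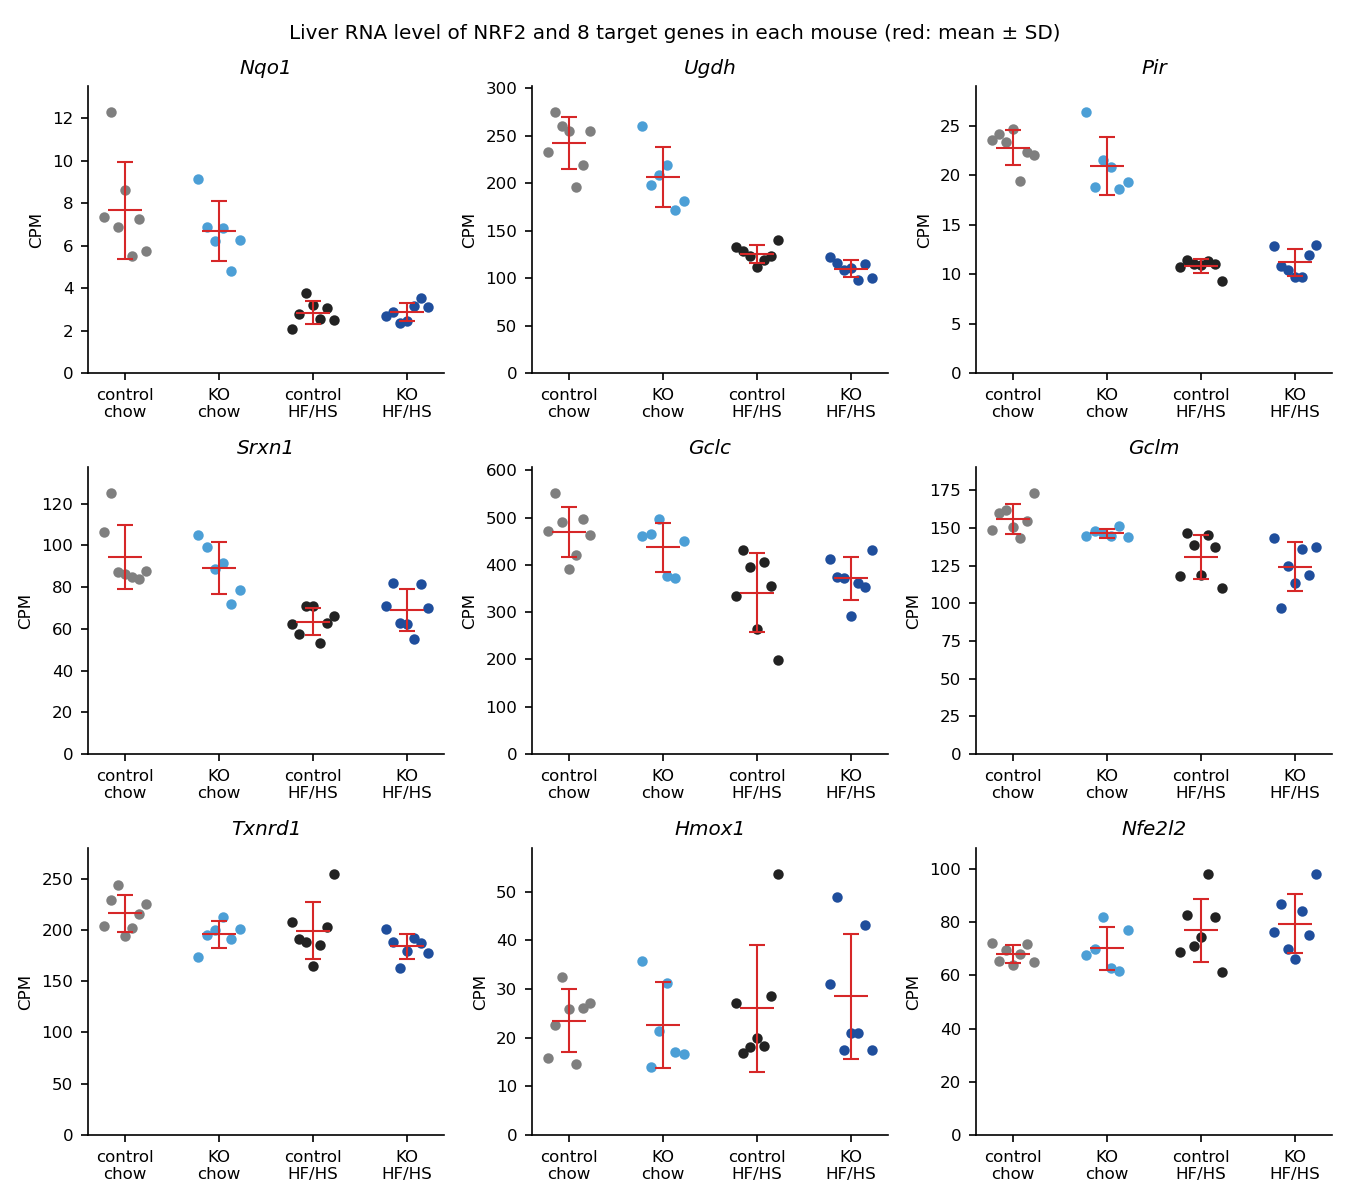
Level of 9 genes in each mouse, in CPM on an axis from 0, by group. Each point is 1 mouse and the red mark is the group mean with its SD (n = 7, 6, 7 and 7). *Nqo1*, *Ugdh* and *Pir* on HF/HS lie below every chow mouse of the same genotype, whereas *Txnrd1*, *Hmox1* and *Nfe2l2* overlap between diets.

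The largest difference was in *Nqo1*, whose product NAD(P)H:quinone oxidoreductase 1 reduces quinones in a single step without releasing radicals. On chow *Nqo1* was between 5.49 and 12.3 CPM (median 7.25) in control mice and between 4.82 and 9.12 CPM (median 6.55) in HGFAC-KO mice. With HF/HS feeding it was between 2.07 and 3.75 CPM (median 2.79) in control mice and between 2.36 and 3.55 CPM (median 2.88) in HGFAC-KO mice. Every mouse on HF/HS was below every mouse on chow, in both genotypes. The mean on HF/HS was 37.1% of that on chow in control mice (log2 fold change -1.43 ± 0.17 SE, adjusted p = 6.5e-05 by edgeR) and 43.1% in HGFAC-KO mice (-1.21 ± 0.14, adjusted p = 1.1e-04). On chow the highest control mouse was replicate 2 at 12.3 CPM, and the next was at 8.62 CPM.

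*Ugdh* encodes UDP-glucose dehydrogenase, which makes the UDP-glucuronate that glucuronidation uses. Control mice had 196 to 275 CPM on chow (median 255) and 112 to 140 CPM on HF/HS (median 123). HGFAC-KO mice had 171 to 261 CPM on chow (median 203) and 97.6 to 122 CPM on HF/HS (median 110). The diets did not overlap in either genotype. The log2 fold change was -0.94 ± 0.07 SE in control mice (adjusted p = 4.1e-07 by edgeR) and -0.90 ± 0.09 in HGFAC-KO mice (adjusted p = 5.5e-05).

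*Pir* encodes pirin, a nuclear iron-binding protein that acts as a transcriptional coregulator. In control mice it fell from 19.4 to 24.7 CPM on chow (median 23.3) to 9.32 to 11.4 CPM on HF/HS (median 11.04). In HGFAC-KO mice it fell from 18.6 to 26.4 CPM (median 20.04) to 9.74 to 13.0 CPM (median 10.8). Again no mouse on HF/HS reached the lowest mouse on chow. Its log2 fold change was -1.07 ± 0.06 SE in control mice (adjusted p = 3.8e-08 by edgeR), the second smallest p-value of all 13525 genes, and -0.90 ± 0.10 in HGFAC-KO mice (adjusted p = 7.3e-05).

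**Figure D2:**
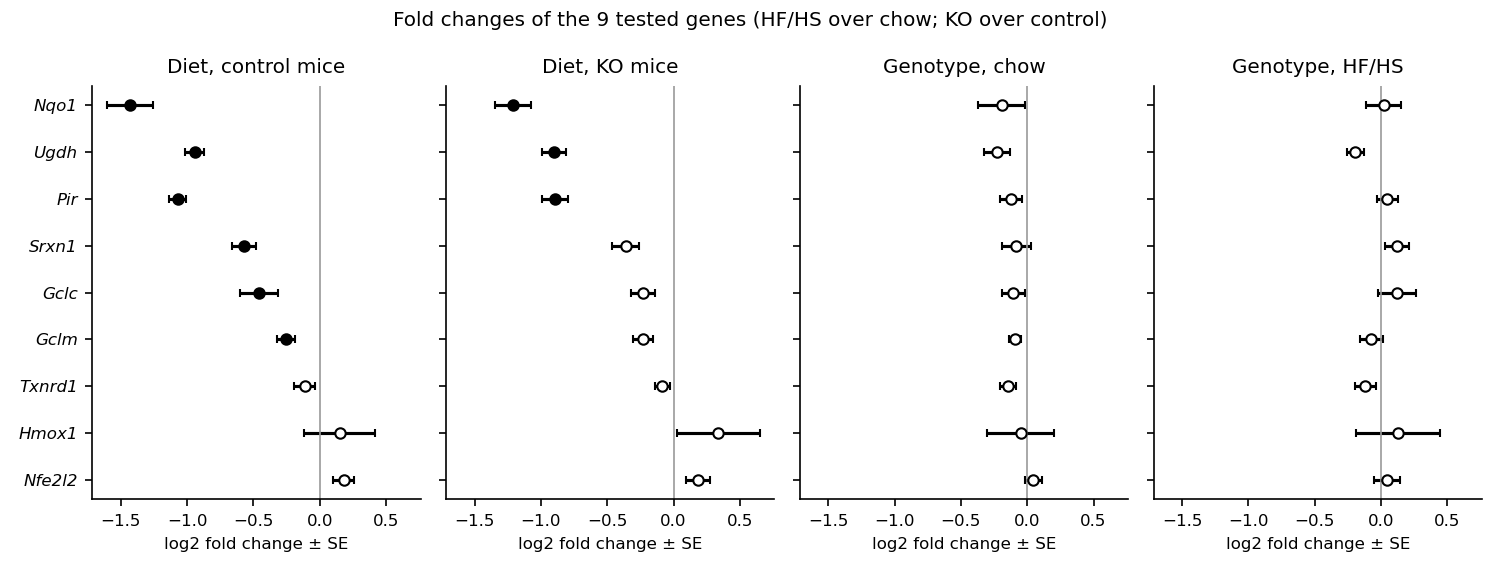
Log2 fold change with its SE for 9 genes in 4 comparisons, HF/HS over chow in each genotype and HGFAC-KO over control on each diet. Filled points have an adjusted p below 0.05 by edgeR's quasi-likelihood test. Filled points occur in the 2 diet panels, 6 in control mice and 3 in HGFAC-KO mice, and none in the genotype panels.

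The genes of glutathione synthesis had smaller fold changes. *Gclc* and *Gclm* encode the catalytic and the modifier subunit of glutamate-cysteine ligase, which carries out the rate-limiting step of glutathione synthesis. *Gclc* was at 392 to 552 CPM on chow (median 472) and 199 to 431 CPM on HF/HS (median 355) in control mice. In HGFAC-KO mice it was at 372 to 496 CPM (median 456) and 292 to 432 CPM (median 373). The diets overlapped in both genotypes. The log2 fold change was -0.46 ± 0.14 SE in control mice (adjusted p = 0.0497 by edgeR) and -0.23 ± 0.09 in HGFAC-KO mice (adjusted p = 0.16). The control call was close to the threshold: it was lost with no filter on low counts and when any of 9 of the 14 mice was left out, with adjusted p between 0.033 and 0.096 over the 14.

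*Gclm* was at 144 to 173 CPM on chow (median 154) and 110 to 147 CPM on HF/HS (median 137) in control mice. In HGFAC-KO mice it was at 144 to 151 CPM on chow (median 146) and 96.8 to 144 CPM on HF/HS (median 125). The groups overlapped in control mice and missed each other narrowly in HGFAC-KO mice, where the highest mouse on HF/HS was at 143.6 CPM and the lowest on chow at 143.9 CPM. The change was -0.25 ± 0.07 SE in control mice (adjusted p = 0.026 by edgeR) and -0.23 ± 0.08 in HGFAC-KO mice (adjusted p = 0.086). In HGFAC-KO mice DESeq2 gave an adjusted p of 0.043. Without control chow replicate 7 or control HF/HS replicate 1 the control call of *Gclm* was lost (adjusted p = 0.054 and 0.052 by edgeR).

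*Slc7a11* encodes the cystine importer xCT, which supplies the cysteine of glutathione. It had 35 counts in the 27 mice together, with 0 counts in 7 mice and at most 6 in any. In 25 mice it had no more than 3 counts, a level that corresponds to between 0.0546 and 0.0875 CPM depending on depth. At this depth no difference of *Slc7a11* between groups was detectable, and no fold change is given.

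Of the genes that keep protein thiols reduced, *Srxn1* was lower on HF/HS in control mice and *Txnrd1* passed in neither genotype. *Srxn1* encodes sulfiredoxin, which repairs overoxidized peroxiredoxins. It was at 83.8 to 125 CPM on chow (median 87.4) and 53.3 to 70.9 CPM on HF/HS (median 62.7) in control mice, without overlap. In HGFAC-KO mice it was at 72.1 to 105 CPM (median 90.3) and 55.0 to 82.2 CPM (median 69.8), with overlap. The log2 fold change was -0.57 ± 0.09 SE in control mice (adjusted p = 9.4e-04 by edgeR) and -0.36 ± 0.10 in HGFAC-KO mice (adjusted p = 0.055). The HGFAC-KO value lay just outside the threshold: DESeq2 gave 0.017, and leaving out HGFAC-KO chow replicate 5 or 6 or HGFAC-KO HF/HS replicate 2 or 6 gave adjusted p between 0.031 and 0.049 by edgeR.

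*Txnrd1* encodes the cytosolic thioredoxin reductase. Control mice had 194 to 244 CPM on chow (median 216) and 165 to 254 CPM on HF/HS (median 191), and HGFAC-KO mice had 173 to 213 CPM (median 198) and 162 to 201 CPM (median 187). All 4 groups overlapped. The diet change was -0.11 ± 0.08 SE in control mice (adjusted p = 0.41 by edgeR) and -0.08 ± 0.06 in HGFAC-KO mice (adjusted p = 0.43).

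*Hmox1*, which encodes the heme-degrading enzyme heme oxygenase 1, varied more between mice than the other members tested in each group but control chow, where *Nqo1* did. Its coefficient of variation was between 27.4% and 49.95% within the 4 groups. Control mice had 14.5 to 32.6 CPM on chow (median 25.9) and 16.9 to 53.6 CPM on HF/HS (median 19.8). HGFAC-KO mice had 14.0 to 35.9 CPM on chow (median 19.2) and 17.4 to 48.9 CPM on HF/HS (median 21.1). The groups overlapped widely, and the diet change was 0.15 ± 0.27 SE in control mice (adjusted p = 0.78 by edgeR) and 0.34 ± 0.31 in HGFAC-KO mice (adjusted p = 0.56). Without control HF/HS replicate 7, the highest mouse, the control estimate was -0.13.

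*Hmox1* is also expressed by macrophages, and macrophage markers differed between mice and diets. The 11 Kupffer cell markers summed to 496 CPM in control HF/HS replicate 7 and to at most 406 CPM in control mice on chow, 288 CPM in HGFAC-KO mice on chow and 414 CPM in HGFAC-KO mice on HF/HS. In control mice none of the 11 was called between diets (3 had an unadjusted p below 0.05 in edgeR). In HGFAC-KO mice 7 of the 11 were higher on HF/HS, where 3.17% of all genes were called higher. The 11 markers had a median log2 fold change of 0.50 and summed levels of 193 to 288 CPM on chow and 266 to 414 CPM on HF/HS. Their part in the level of *Hmox1* or of the other members was not tested.

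*Nfe2l2* itself did not pass the test between diets. It was at 63.7 to 72.3 CPM on chow (median 68.1) and 61.3 to 98.0 CPM on HF/HS (median 74.6) in control mice, and at 61.5 to 82.1 CPM (median 68.8) and 66.1 to 98.1 CPM (median 76.2) in HGFAC-KO mice. The groups overlapped, with a log2 fold change of 0.18 ± 0.08 SE in control mice (adjusted p = 0.17 by edgeR) and 0.18 ± 0.09 in HGFAC-KO mice (adjusted p = 0.26).

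Per length, that is as CPM per kilobase of annotated exon (GENCODE, GRCm38), *Gclc* was the most abundant of the 10 genes in control mice on chow, at a mean of 125 and with every mouse above every mouse of the next gene. *Ugdh* (mean 35.8, mice from 29.005 to 40.7), *Srxn1* (33.5, 29.7 to 44.4) and *Txnrd1* (30.5, 27.4 to 34.4) followed and overlapped each other. *Gclm* (24.8, 22.8 to 27.5) overlapped the lowest mice of *Txnrd1*, *Nfe2l2* (17.9, 16.8 to 19.1) overlapped *Hmox1* (13.4, 8.29 to 18.6), and *Nqo1* (4.93, 3.54 to 7.91) overlapped *Pir* (4.11, 3.49 to 4.45). *Slc7a11* came last, near 0. On HF/HS the mean level per kilobase of *Ugdh* was 18.6 in control mice, below *Txnrd1* at 28.1, *Srxn1* at 22.5, *Gclm* at 20.8 and *Nfe2l2* at 20.3.

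Between genotypes none of the 9 tested genes passed the test on either diet. On chow 0 of 9 were called by edgeR, where 0.00737% of 13571 genes, which is 1 gene, were called, and 2 of 9 (*Txnrd1* and *Ugdh*) had an unadjusted p below 0.05, as did 5.98% of all genes. On HF/HS 0 of 9 were called, where 0.0148% of 13544 genes, or 2 genes, were called, and 1 of 9 (*Ugdh*) had an unadjusted p below 0.05, as did 9.64% of all genes. Limma voom called 0 of 9 on each diet, and DESeq2 called 0 of 9 on HF/HS. On chow DESeq2's independent filtering gave an adjusted p to 1993 of the 13571 genes, and *Nfe2l2*, *Nqo1*, *Hmox1* and *Pir* had none, so that 0 of the other 5 members were called there. By sign, 8 of the 9 were below 0 on chow (median -0.10) and 3 of 9 on HF/HS (median 0.04), where the medians of all genes were 0.00 and 0.00. Of the 11 Kupffer cell markers 11 were below 0 on chow (median -0.21) and 4 on HF/HS (median 0.04), with none called by edgeR (1 and 0 had an unadjusted p below 0.05), and on chow they summed to 198 to 406 CPM in control mice and 193 to 288 CPM in HGFAC-KO mice. Of the other markers on chow, 6 of 8 leukocyte, 5 of 6 sinusoidal endothelial and 5 of 7 stellate cell markers were below 0. So were 2 of 4 erythroid, 5 of 8 hepatocyte and 0 of 5 cholangiocyte markers, and none was called by edgeR. Summed hepatocyte markers on chow were at 81477 to 96599 CPM in control mice and 92373 to 106819 CPM in HGFAC-KO mice. The part of cell types in these values was not tested. Genes called in neither direction are not thereby shown to be equal, since the SE of the 9 log2 fold changes ran from 0.05 for *Gclm* on chow to 0.32 for *Hmox1* on HF/HS.

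*Ugdh* had the smallest p of the members on HF/HS, and *Txnrd1* had it on chow. The mean of *Ugdh* in HGFAC-KO mice was 85.4% of the control mean on chow (log2 fold change -0.23 ± 0.10 SE) and 87.6% on HF/HS (-0.19 ± 0.06), and the mice of the 2 genotypes overlapped on both diets. The adjusted p by edgeR was 0.80 on chow and 0.41 on HF/HS, and no alternative brought either below 0.05 (range 0.17 to 0.95). *Txnrd1* was lower by 0.14 ± 0.06 on the log2 scale on chow (adjusted p = 0.80 by edgeR) and by 0.12 ± 0.08 on HF/HS (adjusted p = 0.65).

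Whether the diet effect differed between genotypes was asked with an interaction term in 1 fit of the 27 mice. None of the 9 genes was called, 0 had an unadjusted p below 0.05, and DESeq2 and limma voom called 0 as well. The background was 0% of 13932 genes, of which 506 (3.63%) had an unadjusted p below 0.05. The interaction was positive in sign for all 9 genes, from 0.00 for *Nfe2l2* to 0.23 ± 0.18 SE for *Gclc*. *Nqo1* was at 0.22 ± 0.23 and *Srxn1* at 0.21 ± 0.15. The median was 0.18, where that of all genes was 0.00. The sign was not stable for *Nfe2l2*, *Gclm*, *Txnrd1* and *Ugdh*, whose estimates crossed 0 with a mouse left out. Other lists also lay above 0 in this term, the Kupffer cell markers in 11 of 11 genes (median 0.22) and the ATF4 targets in 11 of 15 (median 0.29), with no gene called by edgeR and 0 at an unadjusted p below 0.05. The lower count of calls in HGFAC-KO mice (3 against 6 by edgeR, with 5 in HGFAC-KO mice by DESeq2) is therefore not a tested difference between genotypes.

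How far the members moved together from mouse to mouse was examined within groups, a measure the choice of genes by group level did not use. Log2 CPM was centred on the mean of each group, and all 36 pairs of the 9 genes were correlated over the 27 mice, with p-values from 100000 permutations of mice within groups. In 9 pairs the adjusted p over the 36 was below 0.05, and all 9 correlations were positive. By Spearman's rho 8 pairs passed. These p-values test each pair against no correlation and not against other genes, many of which were also correlated in these livers: the upper end of the middle 95% of r values with all other genes ran from 0.49 for *Nfe2l2* to 0.66 for *Hmox1*.

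**Figure D3:**
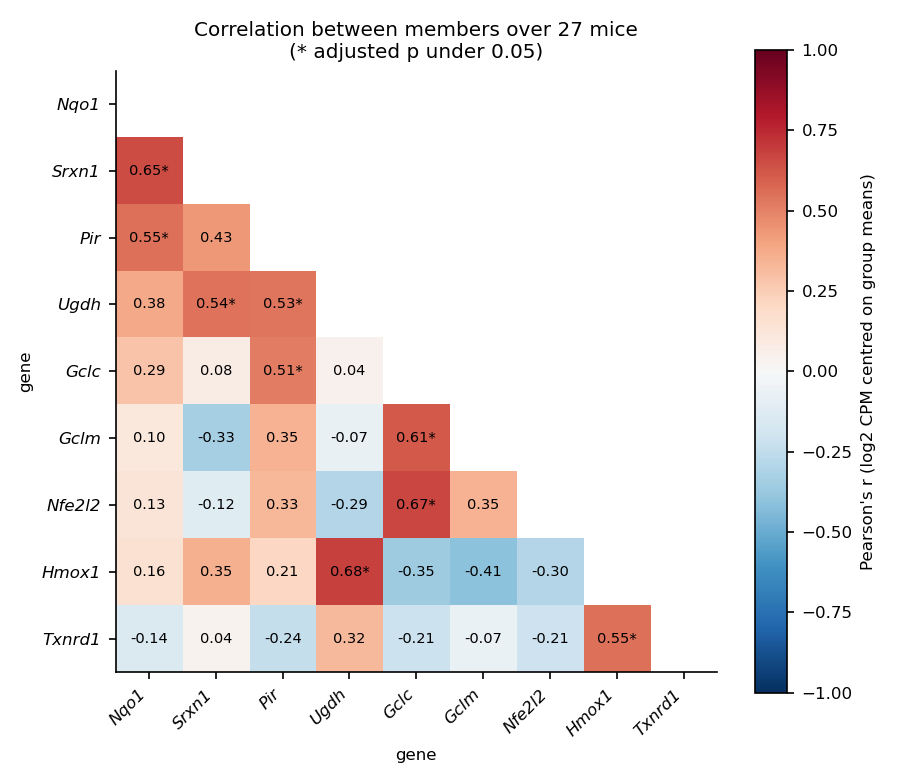
Pearson's r between 9 genes over 27 mice, on log2 CPM centred on group means. Colour gives r from -1 to 1, and asterisks mark an adjusted p below 0.05 over 36 pairs. The marked pairs include *Hmox1* with *Ugdh* (0.68), *Nfe2l2* with *Gclc* (0.67) and *Nqo1* with *Srxn1* (0.65).

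The highest correlation joined *Hmox1* and *Ugdh* (r = 0.68, permutation p = 1.4e-04, adjusted p = 0.0050, and rho = 0.67, permutation p = 5.8e-04, adjusted p = 0.021). Without the 2 mice farthest from the median of *Hmox1* it stayed at 0.68. The transcription factor gene and the catalytic ligase subunit, *Nfe2l2* and *Gclc*, had r = 0.67 (permutation p = 8.7e-04, adjusted p = 0.011) and rho = 0.59 (permutation p = 0.0040, adjusted p = 0.036), and r = 0.63 without the 2 farthest mice. *Nqo1* and *Srxn1* had r = 0.65 (permutation p = 8.8e-04, adjusted p = 0.011) and rho = 0.55 (permutation p = 0.0053, adjusted p = 0.036), with r = 0.45 without the 2 farthest mice. An r as high as that of its partner was reached with *Hmox1* by 2.07% of all other genes and with *Ugdh* by 0.129%, with *Nfe2l2* by 0.115% and with *Gclc* by 0.962%, and with *Nqo1* by 0.345% and with *Srxn1* by 0.632%. Within diets these pairs had r between 0.42 and 0.81 in the 13 chow mice and the 14 HF/HS mice.

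**Figure D4:**
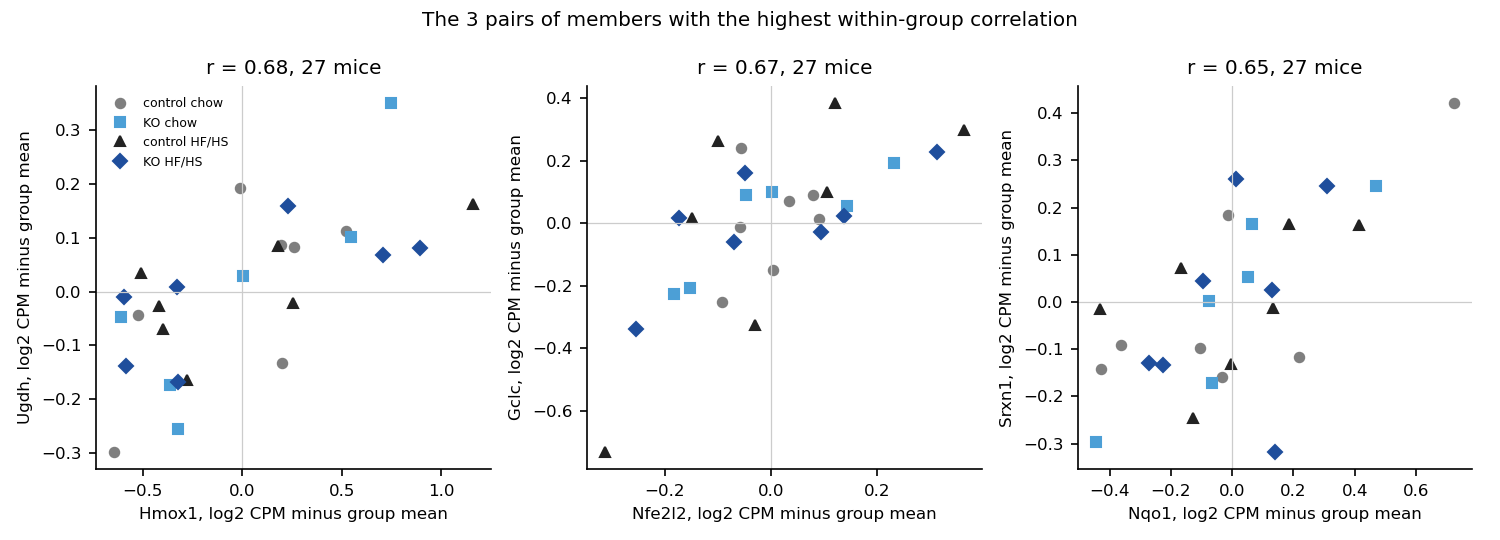
Deviation of each of 27 mice from its group mean, in log2 CPM, for the 3 pairs with the highest correlation. Symbols mark the 4 groups. In the middle panel control HF/HS replicate 7 is lowest for both *Nfe2l2* and *Gclc*.

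The subunits *Gclc* and *Gclm* had r = 0.61 (permutation p = 0.0020, adjusted p = 0.014) and rho = 0.66 (permutation p = 0.0013, adjusted p = 0.024), with r = 0.48 without the 2 farthest mice. *Nqo1* with *Pir* (r = 0.55), *Hmox1* with *Txnrd1* (0.55), *Srxn1* with *Ugdh* (0.54), *Ugdh* with *Pir* (0.53) and *Gclc* with *Pir* (0.51) were the other pairs past the threshold. An r as high as that between *Gclc* and *Pir* was reached by 5.1% of all genes with *Gclc* and 2.35% with *Pir*, and one as high as that between *Hmox1* and *Txnrd1* by 5.08% with *Hmox1* and 4.18% with *Txnrd1*. Some of these correlations were lower without the 2 farthest mice or in 1 diet. For *Ugdh* with *Pir* r was 0.19 without the 2 farthest, 0.88 in the chow mice and -0.02 in the HF/HS mice, and it was the pair that did not pass by rho. For *Hmox1* with *Txnrd1* r was 0.38 without the 2 farthest, 0.21 in the chow mice and 0.73 in the HF/HS mice. For *Gclc* with *Pir* the values were 0.34, 0.30 and 0.67. *Gclc* with *Gclm* had 0.24 in the chow mice and 0.69 in the HF/HS mice. For *Nqo1* with *Pir* r was 0.45 without the 2 farthest, 0.73 in the chow mice and 0.32 in the HF/HS mice, and for *Srxn1* with *Ugdh* it was 0.43, 0.66 and 0.35. *Nfe2l2* was not correlated past the threshold with *Nqo1* (r = 0.13), *Ugdh* (-0.29) or *Hmox1* (-0.30). Leaving out control HF/HS replicate 7 left 5 of the 9 pairs, and *Gclc* with *Gclm*, *Gclc* with *Pir*, *Hmox1* with *Txnrd1* and *Srxn1* with *Ugdh* then had adjusted permutation p between 0.059 and 0.20.

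Beyond the 10 genes, 46 further known NRF2 targets were read out, of which 44 were tested between diets. In control mice 28 of the 44 were lower on HF/HS and 0 higher (32 had an unadjusted p below 0.05 in edgeR, and DESeq2 called 1 higher), with a median log2 fold change of -0.45, where 10.5% of all genes were called in either direction. In HGFAC-KO mice 26 were lower and 2 higher (*G6pdx* and *Osgin1*), with a median of -0.34, where 5.89% of all genes were called. The genes lower in both genotypes numbered 25, which is 89.3% of the control list and 96.2% of the HGFAC-KO list. Of all genes, 242 were lower in both, which is 32% of those lower in control mice and 65.2% of those lower in HGFAC-KO mice.

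Glutathione transferases, which couple glutathione to electrophiles, were lower in 10 of 11 genes in control mice and 8 of 11 in HGFAC-KO mice. Among all genes, 5.6% and 2.73% were called lower, the shares to set beside each role given here and below. *Gstm1* went from 1248 ± 196 to 421 ± 93.8 CPM (SD, n = 7 each) in control mice, a log2 fold change of -1.57 ± 0.14 SE (adjusted p = 3.9e-06 by edgeR). In HGFAC-KO mice it went from 1297 ± 292 (SD, n = 6) to 440 ± 67.1 CPM (n = 7), a change of -1.55 ± 0.14 (adjusted p = 2.5e-05 by edgeR). *Gstm3* changed by -2.54 ± 0.24 and -2.46 ± 0.24, and neither gene overlapped between diets in either genotype. *Gsta2* changed by -2.32 ± 0.29 in HGFAC-KO mice (adjusted p = 3.8e-04 by edgeR). *Gsta1* had a median of 44 counts on chow and 3 on HF/HS in control mice, and 32 and 5 in HGFAC-KO mice, too few for a fold change. These families hold near-identical genes, so the share of each gene in the counts is uncertain.

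Of the 6 iron and heme genes, 4 were lower in each genotype. *Fth1* and *Ftl1* encode the ferritin subunits that store iron, and *Slc48a1* encodes a heme transporter. *Fth1* changed by -0.52 ± 0.07 SE (adjusted p = 2.6e-04 by edgeR) in control mice and -0.57 ± 0.08 (adjusted p = 7.2e-04) in HGFAC-KO mice, and ferritin pseudogenes make its counts uncertain. Of the 4 multidrug resistance transporters, *Abcc3* and *Abcc4* were lower in both genotypes, *Abcc3* by -1.20 ± 0.13 and -1.48 ± 0.16. Of 11 carbonyl, epoxide and other detoxification enzymes tested, 7 were lower in control mice and 6 in HGFAC-KO mice, among them *Ephx1*, the microsomal epoxide hydrolase, at -0.95 ± 0.10 and -0.80 ± 0.11, and the glucuronosyltransferase gene *Ugt2b35* at -0.74 ± 0.09 and -0.68 ± 0.06.

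Fold changes were smaller in the genes that supply NADPH and in those of thiol and peroxide reduction. Of 6 NADPH genes, 2 were lower in control mice, and 3 were lower and 1 higher in HGFAC-KO mice. The medians were -0.19 and -0.20. *G6pdx*, the entry enzyme of the pentose phosphate pathway, was at 3.68 ± 0.36 CPM on chow (SD, n = 6) and 4.95 ± 0.44 on HF/HS (n = 7) in HGFAC-KO mice, a rise of 0.43 ± 0.09 SE (adjusted p = 0.012 by edgeR). Of 4 thiol and peroxide genes tested, 2 were lower in each genotype. These roles were assigned after the values had been seen.

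*Osgin1*, an oxidative stress induced growth inhibitor, went the other way from most targets. In HGFAC-KO mice it rose from 177 ± 53.6 CPM on chow (SD, n = 6) to 365 ± 56.0 CPM on HF/HS (n = 7), by 1.05 ± 0.17 SE on the log2 scale (adjusted p = 0.0018 by edgeR), with no overlap. In control mice it was at 206 ± 85.1 and 281 ± 81.2 CPM (n = 7 each), a difference of 0.45 ± 0.25 (adjusted p = 0.29). *G6pdx* and *Osgin1* are named because they were the targets called higher. In HGFAC-KO mice 39 of the 44 targets were below 0, and *Akr1b10* (0.38), *Abcc1* (0.41) and *Akr1b8* (0.35) were above 0 without passing (adjusted p = 0.16, 0.17 and 0.21 by edgeR). In control mice 38 of the 44 were below 0, and *Prdx6* (0.17), *Akr1b10* (0.33), *Akr1b8* (0.33), *Abcc1* (0.05), *G6pdx* (0.05) and *Osgin1* were above 0 without passing. Between genotypes edgeR called 0 of the 45 targets tested on chow and 0 of the 43 tested on HF/HS. An unadjusted p below 0.05 was found for 7 and 9 of them, where 5.98% and 9.64% of all genes had one, 37 on chow and 28 on HF/HS were below 0 (median -0.08 and -0.09), and DESeq2 called 1 lower on each diet.

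**Figure D5:**
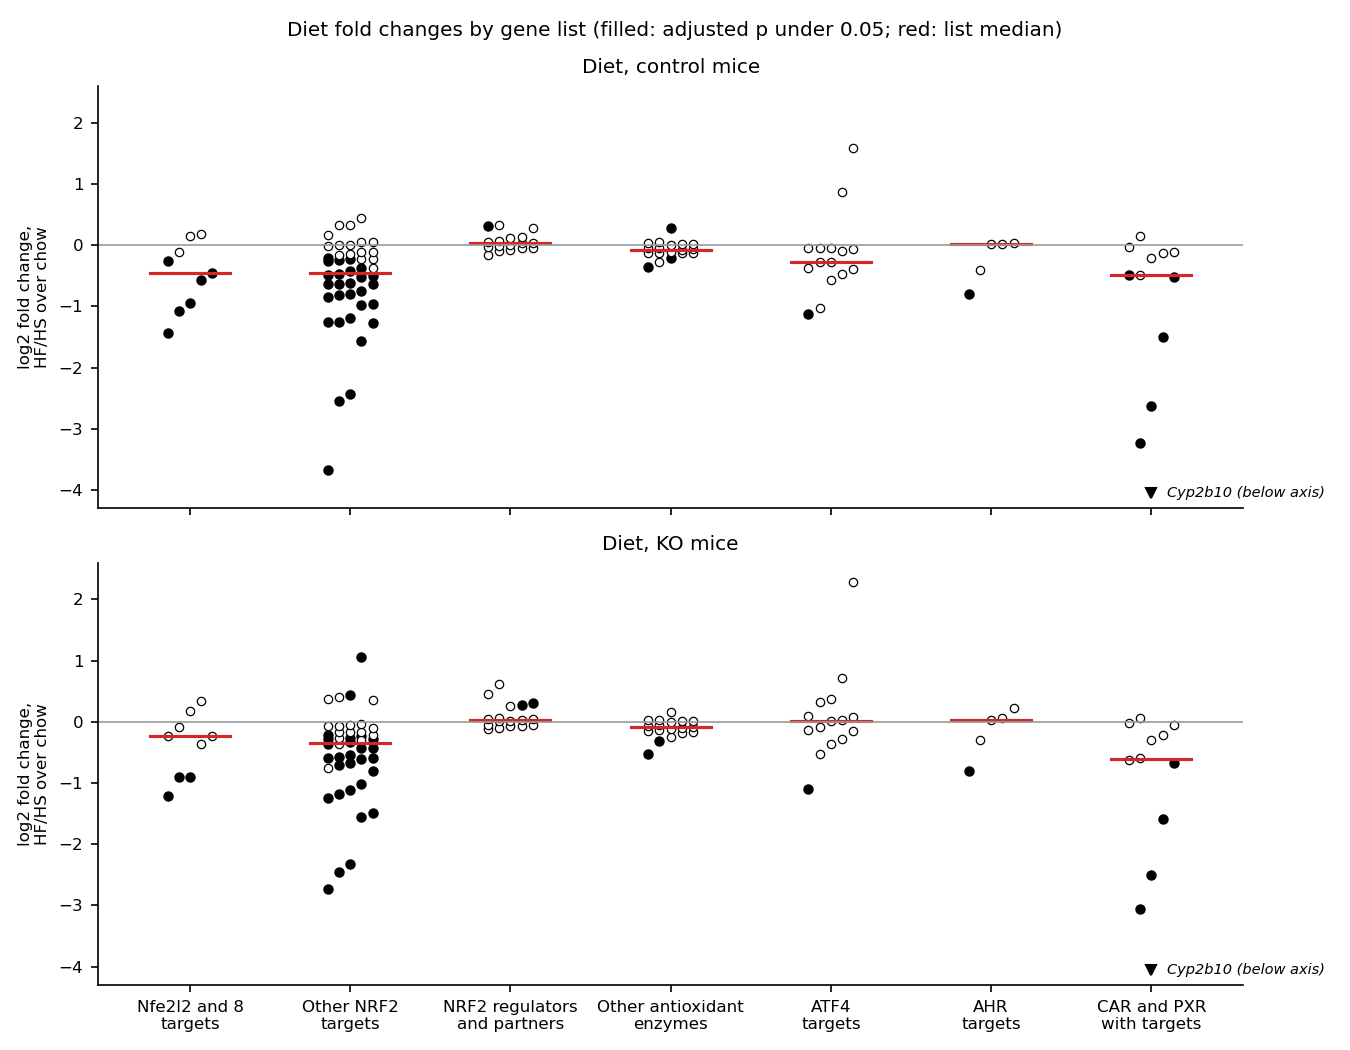
Log2 fold change of HF/HS over chow for each gene of 7 lists, in control mice (top) and HGFAC-KO mice (bottom). Filled points have an adjusted p below 0.05 by edgeR and red lines are list medians, -0.45 and -0.34 for the other NRF2 targets. *Cyp2b10*, whose HF/HS mice had at most 3 counts, lies below the axis in both panels.

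The proteins that hold, free or assist NRF2 were looked at by their mRNA. Of 17 regulators and partners, 1 was higher and 0 lower in control mice, and 2 were higher and 0 lower in HGFAC-KO mice by edgeR, with medians of 0.03 and 0.03. That is 5.88% and 11.8% of the list, where 4.93% and 3.17% of all genes were called higher. *Crebbp*, a coactivator, was higher by 0.31 ± 0.07 SE in each genotype (adjusted p = 0.014 and 0.013 by edgeR). *Bach1*, the repressor that competes for the same elements, was higher in HGFAC-KO mice by 0.28 ± 0.07 (adjusted p = 0.025) and at 0.33 ± 0.12 in control mice did not pass (adjusted p = 0.090). *Mafg*, a small MAF partner of NRF2, was at -0.16 ± 0.08 in control mice (adjusted p = 0.23), and *Ep300*, a coactivator like *Crebbp*, at 0.25 ± 0.09 in HGFAC-KO mice (adjusted p = 0.092). *Keap1*, the adaptor that holds NRF2 for degradation, was at -0.01 ± 0.04 in control mice and -0.07 ± 0.04 in HGFAC-KO mice (adjusted p = 0.95 and 0.33 by edgeR).

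Paralogs of the members and other antioxidant enzymes formed a further list. Of 18 tested, *Gpx4*, the phospholipid hydroperoxide peroxidase, and *Slc3a2*, the partner of xCT, were lower and the extracellular superoxide dismutase gene *Sod3* higher in control mice, and *Gpx4* and *Prdx5* were lower in HGFAC-KO mice. The calls made up 16.7% of the 18 in control mice and 11.1% in HGFAC-KO mice, where 10.5% and 5.89% of all genes were called. *Gpx4* changed by -0.35 ± 0.07 SE and -0.52 ± 0.08 (adjusted p = 0.0038 and 0.0021 by edgeR). *Slc3a2* changed by -0.20 ± 0.05 and *Sod3* by 0.29 ± 0.07 in control mice (adjusted p = 0.0097 and 0.012), and *Prdx5* by -0.32 ± 0.07 in HGFAC-KO mice (adjusted p = 0.019). The glutathione synthetase gene *Gss* was at -0.19 ± 0.07 in HGFAC-KO mice (adjusted p = 0.12), and the other genes of that list did not pass either.

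Genes controlled by other stress and xenobiotic regulators were read out for comparison. The share of all genes called lower was 5.6% in control mice and 2.73% in HGFAC-KO mice. Of 15 ATF4 targets tested, *Ddit4* was lower in both genotypes (-1.13 ± 0.20 and -1.10 ± 0.13 SE, adjusted p = 0.0019 and 1.9e-04 by edgeR) and no other passed. *Fgf21*, a hormone of the liver, was at 1.59 ± 0.49 in control mice and 2.28 ± 0.66 in HGFAC-KO mice (adjusted p = 0.052 and 0.060 by edgeR). *Asns*, the asparagine synthetase gene, was at -1.03 ± 0.36 in control mice (adjusted p = 0.087), and *Atf4* itself at -0.28 ± 0.09 in HGFAC-KO mice (adjusted p = 0.089). Of 5 AHR targets, *Cyp1a2* was lower in both (-0.79 ± 0.10 and -0.81 ± 0.17, adjusted p = 1.6e-04 and 0.011 by edgeR). *Cyp1a1* was at -0.40 ± 0.17 and -0.30 ± 0.33 (adjusted p = 0.16 and 0.62), *Ahr* itself at 0.04 ± 0.11 in control mice (adjusted p = 0.89) and *Cyp1b1* at 0.22 ± 0.29 in HGFAC-KO mice (adjusted p = 0.70). Of 12 genes of the xenobiotic receptors CAR and PXR, 6 were lower in control mice and 5 in HGFAC-KO mice, among them *Cyp3a11* at -3.24 ± 0.19 and -3.06 ± 0.16 and *Cyp2c55* at -2.63 ± 0.18 and -2.50 ± 0.20. *Cyp2b10* had 116 to 642 counts per control mouse on chow and 0 to 3 on HF/HS. CAR and PXR are also known to act on some glutathione transferases and transporters of the NRF2 list.

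Markers of other liver cell types were compared between the diets as well. The share of all genes called in either direction was 10.5% in control mice and 5.89% in HGFAC-KO mice. In control mice 1 of 9 other leukocyte markers was higher, 1 of 7 stellate cell markers was higher and 1 lower, 1 of 4 erythroid markers tested was lower, and of 8 hepatocyte markers 1 was higher and 2 lower. In HGFAC-KO mice 3 of 9 other leukocyte markers and 1 of 6 sinusoidal endothelial markers were higher, and 2 of 8 hepatocyte markers were lower. None of the cholangiocyte markers was called (0 of 5 had an unadjusted p below 0.05 in edgeR in either genotype). Summed hepatocyte markers overlapped between diets, at 81477 to 96599 CPM on chow and 81060 to 99078 CPM on HF/HS in control mice. The part of cell composition in the diet differences was not tested.

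For each member the genes with the most similar pattern over the 27 mice were sought among the 13932 genes of the fit of all mice. Such a correlation spans the diet difference and is given as a description. *Nqo1* was most like *Fth1* (r = 0.96) and *Htatip2* (0.95), *Pir* most like *Akr1c19* (0.96) and *Creg1* (0.95), and *Ugdh* most like *Slc48a1* (0.94) and *Gpat3* (0.94). *Srxn1* was most like *Grina* (0.91) and *Tsen54* (0.90), *Gclc* most like *Pon2* (0.88) and *Pcgf2* (0.88), and *Gclm* most like *Bnip3l* (0.86) and *Carhsp1* (0.86). *Fth1* and *Slc48a1* are themselves on the list of NRF2 targets.

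*Hmox1* was most like *Ccl2* (r = 0.87), a monocyte-attracting chemokine, and *Nlrp3* (0.87), an inflammasome sensor, and these stayed at 0.88 and 0.90 after centring on group means. *Txnrd1* was most like *Nploc4* (0.85) and *Slc11a2* (0.81), and *Nfe2l2* most like *Deaf1* (0.76) and *Hsf2* (0.74).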

How the data were processed

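Liver RNA of 27 mice was captured as mRNA, prepared with a stranded kit and sequenced as paired ends. The authors aligned reads to GRCm38 (mm10) with HISAT2 and deposited raw counts per gene, made with featureCounts 1.6.3 per the submitters' processing notes. The annotation and strand setting of the counting are not given in the sources used here, and genes that overlap or are near-identical may share counts. Of 27179 rows, 3886 name no gene (4.13% to 12.13% of the counts of a mouse) and were left out. Rows of 1 symbol were summed.

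Counts were tested with edgeR 4.0.16 (R 4.3.3; TMM, filterByExpr with a minimum count of 10 and total of 15, robust quasi-likelihood fit, Benjamini-Hochberg, threshold 0.05) on the groups compared, and the interaction on all mice. CPM uses TMM sizes, and log2 CPM a prior count of 2. The SE of an edgeR log2 fold change was worked back from the test. It is the absolute fold change divided by the square root of the F statistic. Alternatives were DESeq2 1.42.0, limma voom 3.58.1, no filter, 10 counts in every library, upper quartile scaling, a replicate block, all 27 mice in 1 fit, and each mouse left out. The fits were tested on simulated counts. Permutations used SciPy and numpy.

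The members, the gene lists and the markers were chosen with earlier results of these data known. Named genes were the members, *Hgfac*, the 5 other NRF2 targets and 3 genes of each further pathway list with the smallest p per diet comparison, and the 2 genes most like each member. Others (*Osgin1*, *G6pdx*, *Ftl1*, *Abcc4*, *Slc48a1* by role, *Keap1*, and *Akr1b8*, *Akr1b10*, *Abcc1* and *Prdx6*) were chosen after their values were seen. Mice are the replicates, and p-values cover the spread between them. No libraries of a group agreed within sampling noise.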

Additional observations from a re-analysis of the deposited data

Results flagged for a closer look

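In control HF/HS replicate 7, *Hmox1* was at 53.6 CPM, far above the other 6 mice of the group, which lay between 16.9 and 28.6 CPM. The same mouse had *Pir* at 9.32 CPM, below the others at 10.7 to 11.4 CPM. Of 36 groups looked at, these 2 had a sample this far out, and chance gives about 1 in 20. The Kupffer cell markers (496 CPM) and the other leukocyte markers (22.4 CPM) summed highest of all mice in this animal, and their part in either value was not tested.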

How the results depend on the processing

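No called member changed direction under the alternatives run, and no member pair past the threshold changed the sign of its correlation. Other genes were followed only as counts of calls. Log2 estimates that were not called crossed 0 with a mouse left out for *Hmox1* between diets in control mice (-0.13 to 0.25), *Nfe2l2* (-9.99e-04 to 0.083) and *Hmox1* (-0.235 to 0.061) between genotypes on chow, *Nfe2l2* (-0.011 to 0.115), *Nqo1* (-0.045 to 0.097) and *Hmox1* (-0.056 to 0.411) between genotypes on HF/HS, and *Nfe2l2* (-0.054 to 0.061), *Gclm* (-0.015 to 0.074), *Txnrd1* (-0.010 to 0.0996) and *Ugdh* (-0.0093 to 0.118) in the genotype by diet interaction. The interaction of *Nfe2l2* was also at -0.00350 with DESeq2 and -0.00472 with at least 10 counts in every library. The calls of *Pir*, *Ugdh* and *Nqo1* between diets held in both genotypes, and that of *Srxn1* in control mice, under all 7 other settings and with each mouse left out. With DESeq2, 5 members were lower in HGFAC-KO mice (*Srxn1* and *Gclm* were added), 1 other NRF2 target was higher in control mice, 1 was lower on each diet between genotypes, and the genes called numbered 1401 between diets in HGFAC-KO mice, 13 between genotypes on chow (of 1993 genes given an adjusted p) and 55 on HF/HS. With the replicate number as a block, 774 genes in place of 1424 were called between diets in control mice, 1 other NRF2 target was higher in HGFAC-KO mice, *Gclm* lost its control call (adjusted p = 0.072 by edgeR) and *Srxn1* gained one in HGFAC-KO mice (0.039). The numbers were not taken to pair mice: the deviations of same-numbered mice correlated between -0.25 and 0.37, and in no comparison were all pairs above 0.1, although between diets in HGFAC-KO mice 4 of 6 were and 3 of 6 mice correlated best with their own number. A fit of all 27 mice called 1 gene between genotypes on HF/HS and *Srxn1* in HGFAC-KO mice (adjusted p = 0.031). With mice left out in turn, the genes called between diets in HGFAC-KO mice ran from 467 (without HGFAC-KO chow replicate 2) to 950, those between genotypes on HF/HS from 2 to 11 (5 without control HF/HS replicate 7, 11 without HGFAC-KO HF/HS replicate 5), other NRF2 targets higher in control mice from 0 to 1 (1 without control HF/HS replicate 6 or 7), and correlated pairs from 5 to 9. Depth limits *Slc7a11*, whose counts were too few to compare.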

Other observations

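The mouse HGFAC-KO chow replicate 5 was the lowest of its group for *Nfe2l2*, *Nqo1*, *Gclc*, *Srxn1*, *Ugdh* and *Pir* and the highest for *Gclm*. HGFAC-KO chow replicate 1 was the highest of that group for *Nqo1*, *Hmox1*, *Srxn1*, *Ugdh* and *Pir* and the lowest for *Txnrd1*. Among control mice on HF/HS, replicate 7 was lowest for *Nfe2l2*, *Gclc*, *Gclm* and *Pir* and highest for *Hmox1*, *Txnrd1* and *Ugdh*.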
